A study of Mus musculus with 6 samples.

Results

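The serpins are a family of proteins with one common fold, most of which inhibit serine proteases and some of which inhibit cysteine proteases. The members were the entries of the gene table whose symbol begins with Serpin, 62 of 22513 in all. They carried 63 symbols, since Serpina3f and Serpina3g shared 1 entry. By clade letter, 24 belonged to clade A (mostly secreted plasma proteins), 27 to clade B (mostly proteins kept inside the cell), 3 to clade E, 2 each to F and I, and 1 each to C, D, G and H. By the tissue for which each is best known, 15 were put with liver, 11 with skin and other stratified epithelia, 5 with connective tissue stroma, 6 with leukocytes and 25 with none of these. The label was checked against these roles, and every entry was a Serpin gene.

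An inhibitory serpin offers the protease a reactive loop as bait. When the loop is cut, the serpin changes shape and traps the enzyme in a covalent complex, so each molecule works once. A few members have no inhibitory function, such as the hormone carrier Serpina7, the collagen chaperone Serpinh1 (Hsp47) and the epithelial protein Serpinb5 (maspin). Medullary thymic epithelial cells (mTECs) are known to transcribe many genes of other tissues, among them those of liver and skin, to which serpins of the plasma and of cornifying epithelium belong.

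RNA came from fetal thymus organ culture, in which lobes of C57BL/6 fetal thymus (E15.5) are kept in vitro. Every culture, controls included, was kept for 4 days with 2-DG (2'-deoxyguanosine), a drug toxic to developing haematopoietic cells that spares the stroma. The groups were WT and Jmjd6-/- stroma, unstimulated (1 library each) or stimulated for 4 days with RANKL, the ligand of the receptor RANK that induces Aire in mTECs (2 libraries each). Jmjd6-/- is a germline deletion and so affects every stromal cell type, and the lobes hold a mixture of epithelium, mesenchyme, endothelium and remaining macrophages. The design text calls the repeats technical duplicates and the study's methods call them samples, so p-values measure only the spread between these libraries. In such bulk RNA, fewer cells of a type and less RNA per cell cannot be told apart. The unit was FPKM, fragments scaled for transcript length and sequencing depth, which allows levels to be compared between genes. Estimated depth ran from 15700000 to 30500000 fragments, Jmjd6 lay at 1.32 to 1.96 FPKM in the 3 Jmjd6-/- libraries against 25.9 to 32.5 in the 3 WT libraries, and Aire at 67.1 to 79.7 with RANKL against 0.142 and 0.473 without. The 7 T cell markers summed to at most 2.22 FPKM in any library, against at least 8542 for 7 markers of cortical thymic epithelium.

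Most members lie in tandem clusters, of which that on chromosome 12 held 23 members, all of clade A, that on chromosome 13 held 15 of clade B, and that on chromosome 1 held 12 of clade B. The promoters of the members were searched for 2 short motifs, on both strands of the 250 bases before the start (RefSeq, build GRCm38.p6). The first is TGANTCA, where N is any base, a wider form of the site of AP-1 factors, which has C or G at N. The second is one form of the kB motif bound by NF-kB, namely GGG, any 2 bases and TTTCC. AP-1 and NF-kB are both known to act downstream of RANK, and the motifs were chosen after the values had been seen. Of the 63 symbols, 52 had a promoter entry, and Serpina9 and Serping1 were among those without one. TGANTCA was found before 11 of these 52, including 7 of the 11 chromosome 1 cluster genes that had an entry, whereas 6.75% of all 32851 promoters held it. Of those 7 genes, only Serpinb7 and Serpinb8 have C or G at N, and the others have A or T. The share of all promoters with the narrower form was not counted. Log2 ratios of Jmjd6-/- to WT under RANKL in those 7 ran from -0.83 for Serpinb12 to 2.58 for Serpinb2, with 0.32 for Serpinb10. Serpinb3a and Serpinb3c of the same cluster, at 1.65 and 1.93, were not among the genes with the motif. The windows of those 7 genes are printed because this cluster holds the members with the largest genotype differences, and capitals mark the motif:
Serpinb5, chr1:106861015-106861061, + strand, 140 bases before the start: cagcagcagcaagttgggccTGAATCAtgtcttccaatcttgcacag
Serpinb12, chr1:106934384-106934430, + strand, 45 bases before the start: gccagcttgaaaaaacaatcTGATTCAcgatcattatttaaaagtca
Serpinb11, chr1:107362113-107362159, + strand, 181 bases before the start: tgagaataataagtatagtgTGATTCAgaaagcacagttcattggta
Serpinb11, chr1:107362218-107362264, + strand, 76 bases before the start: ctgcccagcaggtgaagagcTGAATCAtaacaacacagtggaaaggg
Serpinb7, chr1:107422624-107422670, + strand, 45 bases before the start: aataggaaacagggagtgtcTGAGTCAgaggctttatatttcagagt
Serpinb2, chr1:107511309-107511355, + strand, 94 bases before the start: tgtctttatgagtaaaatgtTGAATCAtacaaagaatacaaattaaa
Serpinb10, chr1:107528929-107528975, + strand, 54 bases before the start: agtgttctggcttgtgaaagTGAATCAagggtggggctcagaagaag
Serpinb8, chr1:107589963-107590009, + strand, 23 bases before the start: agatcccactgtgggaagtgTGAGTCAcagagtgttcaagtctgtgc
The other 4 were Serpina1a, Serpina1b, Serpina1c and Serpina1d, close copies that were at or near 0 in these libraries. This kB motif was found before 3 of 52 genes, all among the 8 Serpina3 genes with an entry, against 1.41% of all promoters. These windows are printed because the tested Serpina3 entries all rose with RANKL, and capitals again mark the motif:
Serpina3g, chr12:104236042-104236091, + strand, 85 bases before the start: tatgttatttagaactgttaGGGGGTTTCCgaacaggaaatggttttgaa
Serpina3i, chr12:104262948-104262997, + strand, 154 bases before the start: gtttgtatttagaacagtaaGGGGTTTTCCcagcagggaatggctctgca
Serpina3n, chr12:104406517-104406566, + strand, 171 bases before the start: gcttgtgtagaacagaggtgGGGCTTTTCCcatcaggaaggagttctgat
The 2 motifs were found before different genes, so none of the matches overlapped. A match is a run of letters and not a measured site.

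The family summed to between 534 and 696 FPKM per library, or 0.101% to 0.139% of all FPKM. The 4 members with the highest mean over the 6 libraries made up 62.9% to 81.5% of that sum. In total 23 members had a mean of at least 1 FPKM, 11 more passed the filter for testing (a mean of at least 0.1 FPKM over the 6 libraries), and 28 did not pass it. Of those 28, Serpina1d, Serpina4-ps1, Serpinb6d, Serpinb9c and Serpini2 were listed at 0 in every library. The other 23 reached at most 0.246 FPKM in any library, and they included Serpina1a to Serpina1c (alpha-1-antitrypsin), Serpina5 (protein C inhibitor), Serpina6 (corticosteroid-binding globulin), Serpind1 (heparin cofactor II) and Serpinb13 (an inhibitor of cathepsins in squamous epithelium).

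The level of Serpinh1, the collagen chaperone of the endoplasmic reticulum, was 198 FPKM in unstimulated WT, 213 and 175 in WT with RANKL, 145 in unstimulated Jmjd6-/- and 145 and 162 in Jmjd6-/- with RANKL. Serpinb6a, a widely expressed intracellular inhibitor of cathepsin G, lay beside it at 161, 123 and 162 FPKM in the same order in WT, and at 163, 155 and 152 in Jmjd6-/-. The ranges of these 2 most abundant members overlapped, so their order was not fixed. Next came Serpine2 (protease nexin-1, an inhibitor of thrombin and plasminogen activators), whose 6 values lay between 58.1 and 87.1 FPKM, all below both. Serpinb6a also overlaps exons of Nqo2 and Ripk1 on the other strand. The library preparation as described names no step that keeps the strand, although the authors ran Cufflinks with a strand-specific setting, so the share of reads from those genes is not known.

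**Figure D1:**
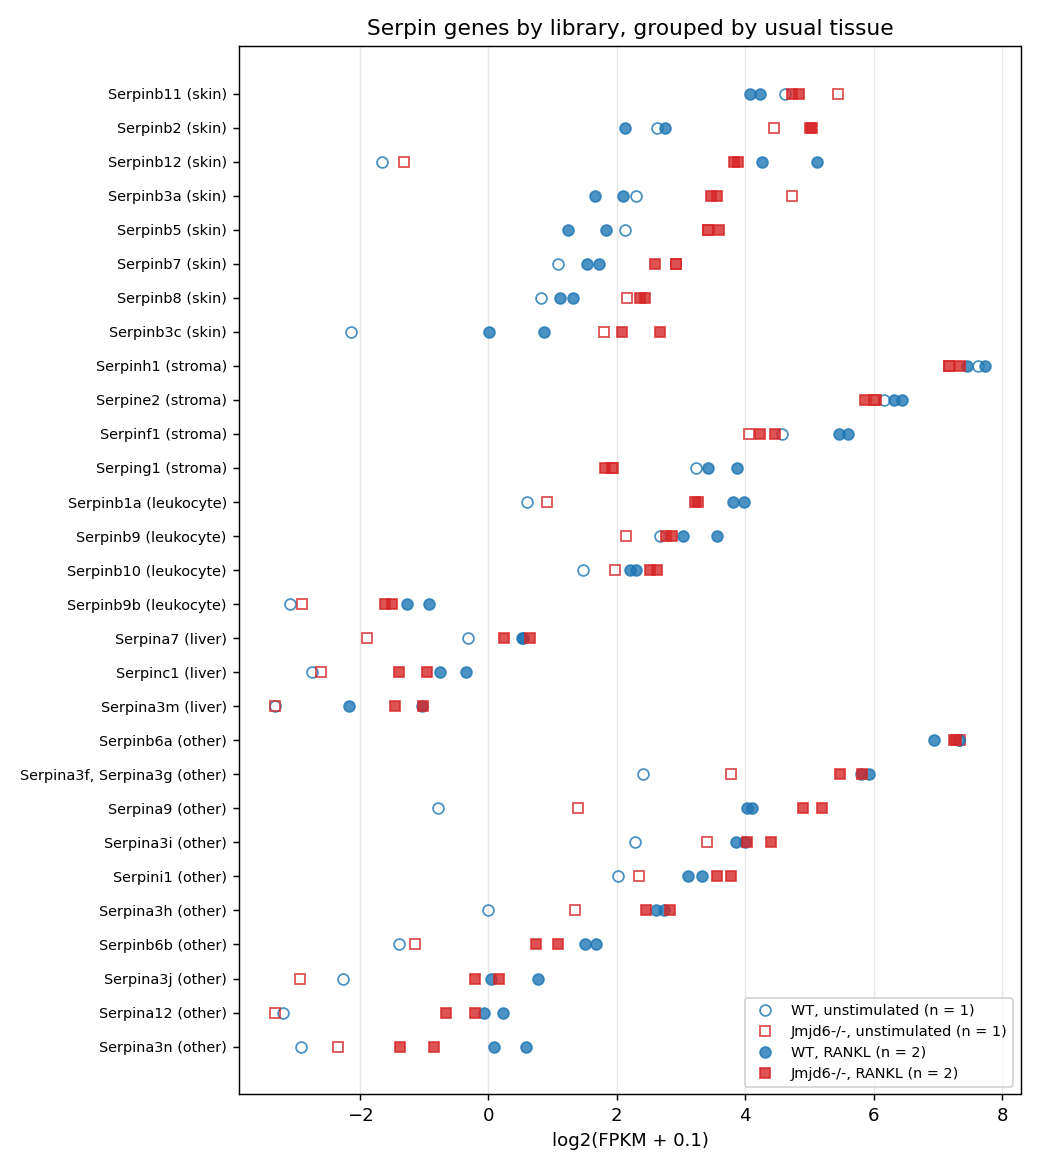
The 29 Serpin genes that averaged 1 FPKM or more or passed an adjusted p of 0.05 in a comparison, plotted as log2(FPKM + 0.1) on the horizontal axis, 1 symbol per library (circles WT, squares Jmjd6-/-, open unstimulated, filled with RANKL). Serpinb2, Serpinb3a, Serpinb3c, Serpinb5, Serpinb7, Serpinb8 and Serpinb11 have all 3 Jmjd6-/- libraries to the right of all 3 WT libraries, and Serpinb12 and Serpina9 have all 4 RANKL libraries far to the right of both unstimulated ones.

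The first comparison asked which serpins answer RANKL, over both genotypes, 4 libraries against 2. With RANKL, 18 of the 34 tested members rose and 2 fell (limma on log2(FPKM + 0.1), adjusted p under 0.05), whereas 10.5% of all 15894 tested genes rose and 4.11% fell. The median log2 change was 1.27 over the 34 tested members and 0.65 over the 23 with a mean of at least 1 FPKM, against -0.02 over all genes. The log2(FPKM + 0.1) scale understates changes of low genes. The filter is a mean over 6 libraries, 4 of them with RANKL, so a low gene can enter through its RANKL values alone, which favours a rise. Of the 11 tested members with a mean under 1 FPKM, 6 rose and 0 fell. Those 6, Serpina12, Serpina3j, Serpina3m, Serpina3n, Serpinb9b and Serpinc1, averaged under 0.1 FPKM without RANKL. Of the 23 with a mean of at least 1 FPKM, 12 rose and 2 fell. All 4 RANKL libraries lay above both unstimulated ones for 20 of 34 members (18.9% of all genes) and below both for 0 (18.5%). By usual tissue, 4 of 4 tested leukocyte members, 3 of 6 liver members, 1 of 5 stroma members and 1 of 8 skin members rose. Of the 11 tested members put with none of these tissues, 9 rose. Both members that fell were of skin.

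Serpinb12, an epithelial serpin, had the largest rise of the 34 tested members. It lay at 0.219 and 0.304 FPKM in the unstimulated WT and Jmjd6-/- libraries, and at 34.5 and 19.1 in WT and 14.1 and 14.6 in Jmjd6-/- with RANKL. The unstimulated libraries were near the floor, at an estimated 10.3 and 7.34 fragments, and all RANKL libraries lay far above them. Its log2 change was 5.75 ± 0.33 (SE, adjusted p = 0.000126, limma), and the mean FPKM was 78.9-fold higher. Among the neighbours of Serpinb12 on chromosome 1, Serpinb5 changed by -0.25, Serpinb2 by 0.20, Serpinb7 by 0.19, Serpinb8 by 0.32 and Serpinb3c by 1.57 on the log2 scale, none past the threshold. Of the other 3 tested genes of that cluster, Serpinb10 rose by 0.69, and Serpinb3a and Serpinb11 had log2 changes of -0.82 and -0.56, past the threshold.

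Serpina9 (centerin), known from germinal centre B cells, was second. It rose from 0.481 FPKM to 16.3 and 17.04 in WT and from 2.54 to 36.5 and 29.9 in Jmjd6-/-, without overlap. The log2 change was 4.25 ± 0.26 (SE, adjusted p = 0.000185, limma). Its exons overlap a predicted gene, Gm28577, on the same strand, so reads could be split. Beside it on chromosome 12, Serpina12 (vaspin, a serpin of adipose tissue) was at 0.00930 and 0 FPKM in the unstimulated WT and Jmjd6-/- libraries, 1.07 and 0.859 in WT with RANKL and 0.770 and 0.532 in Jmjd6-/- with RANKL. The unstimulated values stood for an estimated 1.00 and 0 fragments, and the RANKL libraries for 37.5 to 105. The log2 change of Serpina12 was 3.08 ± 0.29 (SE, adjusted p = 0.00102, limma).

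The Serpina3 genes, the mouse expansion of alpha-1-antichymotrypsin, had 10 entries, of which 6 passed the filter, and all 6 rose. Among these, Serpina3j, Serpina3m and Serpina3n averaged under 0.1 FPKM without RANKL and passed the filter only through their RANKL libraries. The shared entry of Serpina3f and Serpina3g was the highest, at 5.23 FPKM in unstimulated WT, 55.5 and 60.7 in WT with RANKL, 13.6 in unstimulated Jmjd6-/- and 56.2 and 44.5 in Jmjd6-/- with RANKL. Serpina3g is known as an intracellular, interferon-inducible serpin, and the entry rose by 2.66 ± 0.33 on the log2 scale (SE, adjusted p = 0.00302, limma). Serpina3i, next in the cluster, went from 4.76 to 14.3 and 15.8 FPKM in WT and from 10.5 to 20.98 and 16.1 in Jmjd6-/-, a log2 change of 1.22 ± 0.21 (SE, adjusted p = 0.0106, limma). Serpina3h followed with 0.895, 6.01 and 6.53 FPKM in WT and 2.45, 6.99 and 5.37 in Jmjd6-/-, unstimulated first. In all 3 entries the unstimulated Jmjd6-/- library lay above the unstimulated WT library and below every RANKL library.

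The lower Serpina3 entries were Serpina3j, at 0.109 FPKM rising to 0.925 and 1.61 in WT and 0.0307 rising to 0.767 and 1.02 in Jmjd6-/-, Serpina3n and Serpina3m. Serpina3n, the acute-phase member, was at 0.0328 FPKM in unstimulated WT, 1.40 and 0.968 in WT with RANKL, 0.0965 in unstimulated Jmjd6-/- and 0.456 and 0.285 in Jmjd6-/- with RANKL. Both WT RANKL libraries of Serpina3n lay above both Jmjd6-/- RANKL libraries, a log2 ratio of -1.45 ± 0.35 (SE, adjusted p = 0.103, limma) that missed the threshold. Serpina3m was listed at 0 in both unstimulated libraries and at 0.123 and 0.390 FPKM in WT and 0.392 and 0.267 in Jmjd6-/- with RANKL, and its mean was at least 6.81-fold higher with RANKL, taking a floor of 3 fragments over both unstimulated libraries together. The tested log2 changes of the 6 entries ran from 1.22 for Serpina3i to 2.79 for Serpina3j. These genes are close copies. Between 2.29% and 5.97% of the 101-base words in the transcripts of Serpina3f, Serpina3g, Serpina3h, Serpina3i and Serpina3m also occur in another Serpin gene, and Serpina3m overlaps exons of Serpina3k on the same strand, so a part of their reads cannot be placed with certainty.

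**Figure D2:**
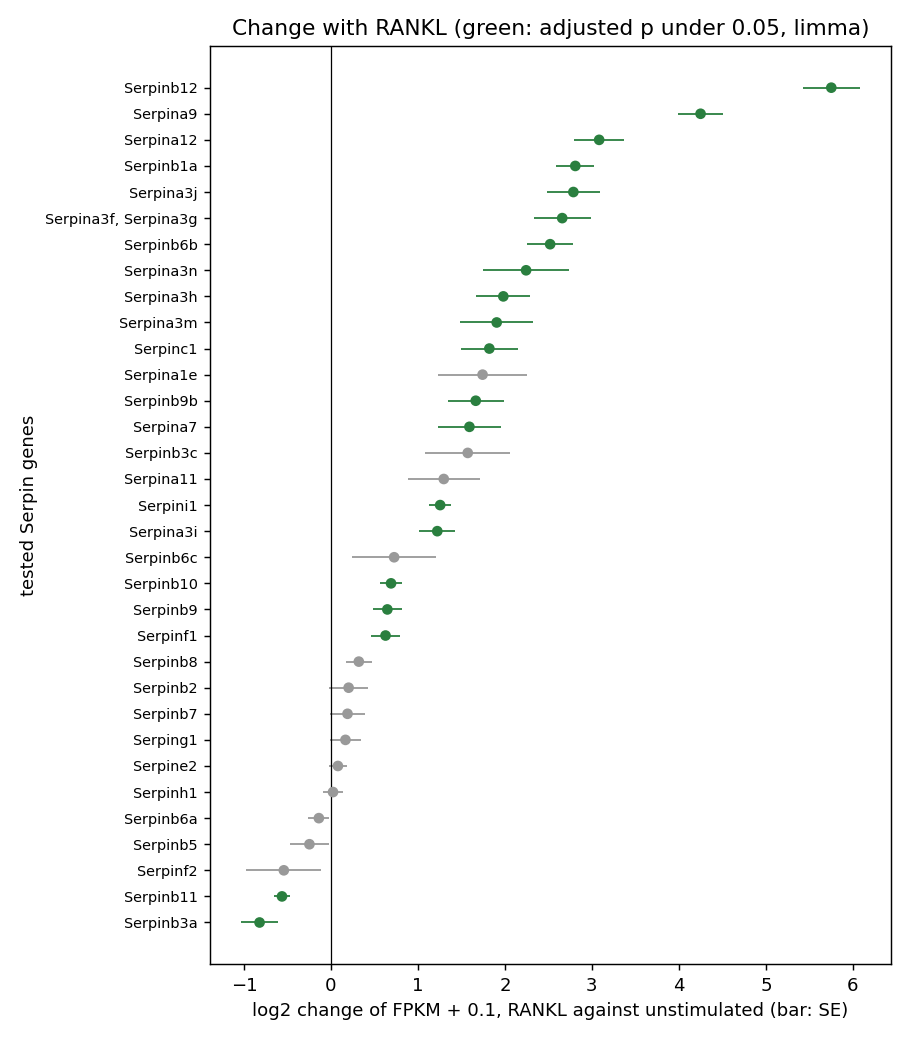
log2 change of FPKM + 0.1 with RANKL for 33 of the 34 tested Serpin genes (horizontal axis, bars SE, 4 RANKL against 2 unstimulated libraries). The 20 green genes passed an adjusted p of 0.05, from 5.75 for Serpinb12 to -0.82 for Serpinb3a.

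The 4 leukocyte members that were tested all rose. Serpinb1a, an inhibitor of the neutrophil serine proteases, was at 1.42 FPKM in unstimulated WT and 13.9 and 15.7 with RANKL, and in Jmjd6-/- at 1.79 and then 9.53 and 9.26. The RANKL libraries lay above both unstimulated ones, with a log2 change of 2.81 ± 0.22 (SE, adjusted p = 0.000491, limma). Serpinb9, which protects cells from granzyme B, was 6.25, 11.7 and 8.11 FPKM in WT and 4.32, 6.69 and 7.15 in Jmjd6-/-, unstimulated first, without overlap but with a lowest RANKL value close to the highest unstimulated one. Serpinb10 (bomapin, of the bone marrow) was 2.67, 4.82 and 4.53 FPKM in WT and 3.82, 5.63 and 6.08 in Jmjd6-/-. The log2 changes were 0.65 ± 0.16 for Serpinb9 and 0.69 ± 0.13 for Serpinb10 (SE, adjusted p = 0.0430 and 0.0154, limma). Exons of Serpinb10 and Serpinb2 overlap on the same strand, so reads could be split between them. Serpinb9b, a granzyme inhibitor relative, stayed under 1 FPKM, at 0.0177 and 0.0343 FPKM unstimulated and 0.229 to 0.424 with RANKL. Beside these genes, the summed level of 7 neutrophil markers was 2.79 and 15.4 FPKM without RANKL in WT and Jmjd6-/-, and 89.4 to 173 with RANKL, and 4 of them rose (Mpo, S100a8, S100a9 and Ngp). Most of the sum was S100a8 in each RANKL library, at 58.5 to 141 FPKM. The granule genes Mpo and Ngp were at 0 in both unstimulated libraries, at 1.20 and 1.40 and at 1.27 and 2.03 FPKM in WT with RANKL, and at 0.0967 and 0.133 and at 0.189 and 0.103 in Jmjd6-/- with RANKL. Elane, the only other marker of the list at 0 in both unstimulated libraries, was above 0 in 1 RANKL library, at 0.0643 FPKM. The part of such cells in the rise was not tested.

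Of the liver members, Serpina7 (thyroxine-binding globulin), Serpinc1 (antithrombin) and Serpina3m rose. Serpina7 was at 0.700 and 0.171 FPKM in the unstimulated WT and Jmjd6-/- libraries, an estimated 46.5 and 5.87 fragments, and at 1.34 and 1.35 in WT and 1.47 and 1.09 in Jmjd6-/- with RANKL. Serpinc1 was at 0.0487 and 0.0636 FPKM without RANKL and at 0.496 and 0.687 in WT and 0.415 and 0.282 in Jmjd6-/- with RANKL. Both had RANKL libraries above both unstimulated libraries, and the log2 changes were 1.59 ± 0.36 for Serpina7 and 1.82 ± 0.33 for Serpinc1 (SE, adjusted p = 0.0300 and 0.0138, limma). Serpinc1 overlaps Zbtb37 on the other strand. The liver members together summed to 0.501 and 0.911 FPKM without RANKL and 2.35 to 4.05 with it. Of 9 hepatocyte markers, 5 were tested, and 1 of them, Apoa1, rose with RANKL. The 9 summed to 0.445 and 0.154 FPKM in unstimulated WT and Jmjd6-/-, 8.16 and 10.8 in WT with RANKL, and 1.66 and 1.02 in Jmjd6-/- with RANKL. Most of the sum with RANKL was Apoa1, at 6.35 and 8.94 FPKM in WT and 1.01 and 0.761 in Jmjd6-/-. Alb, which defines hepatocytes, was at most 0.160 FPKM.

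Serpini1 (neuroserpin, a neuronal inhibitor of tissue plasminogen activator) was at 3.97 FPKM in unstimulated WT, 9.94 and 8.51 in WT with RANKL, 4.99 in unstimulated Jmjd6-/- and 13.6 and 11.7 in Jmjd6-/- with RANKL. The 4 RANKL libraries lay above both others, with a log2 change of 1.26 ± 0.13 (SE, adjusted p = 0.00135, limma). Serpinb6b, a close relative of Serpinb6a, was at 0.282 and 0.351 FPKM in the unstimulated WT and Jmjd6-/- libraries and at 3.08, 2.74, 1.57 and 2.02 with RANKL, WT first, without overlap. Its log2 change was 2.52 ± 0.27 (SE, adjusted p = 0.00166, limma), whereas the abundant Serpinb6a changed by -0.14 ± 0.12 (SE, adjusted p = 0.482, limma) and did not pass. Serpinf1 (pigment epithelium-derived factor) passed only narrowly, with a log2 change of 0.63 ± 0.16 (SE, adjusted p = 0.0493, limma), and its values overlapped between the groups, since Jmjd6-/- with RANKL reached 18.7 and 21.9 FPKM and unstimulated WT already 23.6.

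Both falling members were epithelial serpins of the chromosome 1 cluster. Serpinb11 went from 24.4 FPKM to 16.7 and 18.7 in WT and from 43.5 to 26.5 and 28.4 in Jmjd6-/-, a log2 change of -0.56 ± 0.10 (SE, adjusted p = 0.0114, limma). Serpinb3a, of the squamous cell carcinoma antigen family, went from 4.83 to 3.05 and 4.16 FPKM in WT and from 26.5 to 11.7 and 11.02 in Jmjd6-/-, a log2 change of -0.82 ± 0.21 (SE, adjusted p = 0.0464, limma). Within each genotype the RANKL libraries of both genes lay below the unstimulated one, but across genotypes the ranges overlapped.

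The number of rising members rested on the libraries in use, and without an unstimulated library the response comes from the other genotype's single one. It was 10 without the unstimulated WT library, 10 without the first Jmjd6-/- RANKL library, and 12 to 18 without any one of the others, and the number of falling members was 0 without either unstimulated library or either Jmjd6-/- RANKL library, 1 without the first and 2 without the second WT RANKL library. Serpinb12, Serpina9, Serpina12, Serpinb1a, Serpina3j, Serpinb6b and Serpini1 passed under every alternative in which they were tested. Of 13 alternatives, Serpinf1 passed in 3, Serpinb3a in 4, Serpinb9 in 5, Serpina7 and Serpinb11 in 8, Serpinb10 in 9, Serpina3i in 11, and Serpina3h and the Serpina3f and Serpina3g entry in 12. Of the 12 in which they were tested, Serpina3m passed in 6, Serpina3n in 7, and Serpinb9b and Serpinc1 in 9.

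The second comparison asked which serpins differ between Jmjd6-/- and WT stroma under RANKL, 2 libraries against 2. Of the 34 tested members, 5 were higher in Jmjd6-/- (Serpinb2, Serpinb5, Serpinb3a, Serpinb8 and Serpina9) and 2 were lower (Serping1 and Serpinf1), against 0.516% and 1.82% of all 15894 tested genes (limma, adjusted p under 0.05). With libraries scaled to equal totals, 3 were higher and 2 lower. The exact permutation test of 2 against 2 libraries cannot give a p below 0.333, so these calls rest on the fit across all genes. Of the log2 ratios of Jmjd6-/- to WT, the median was 1.42 over the 8 tested skin members and -1.19 over the 5 stroma members, and -0.10 over all 34, against 0.01 over all genes.

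The 8 tested skin members were all clade B genes of the chromosome 1 cluster, and 7 of them had all 3 Jmjd6-/- libraries, stimulated or not, above all 3 WT libraries. Across all genes 9.14% had this order. Serpinb2 (PAI-2, an inhibitor of urokinase made by keratinocytes and macrophages) was at 6.05 FPKM in unstimulated WT, 4.28 and 6.66 in WT with RANKL, 21.7 in unstimulated Jmjd6-/- and 32.9 and 32.1 in Jmjd6-/- with RANKL. Every Jmjd6-/- library was more than 3-fold above every WT library. Under RANKL the log2 ratio was 2.58 ± 0.22 (SE, adjusted p = 0.0279, limma), and the mean was 5.94-fold higher.

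Serpinb5 (maspin) was at 4.26, 2.27 and 3.48 FPKM in WT, unstimulated first, and at 10.6, 10.6 and 11.95 in Jmjd6-/-, a log2 ratio under RANKL of 1.97 ± 0.24 (SE, adjusted p = 0.0284, limma). Serpinb3a was at 4.83, 3.05 and 4.16 FPKM in WT and 26.5, 11.7 and 11.02 in Jmjd6-/-, a log2 ratio of 1.65 ± 0.19 (SE, adjusted p = 0.0280, limma). Neither gene overlapped between the genotypes. Serpinb8, an epithelial inhibitor of furin, was at 1.67, 2.06 and 2.40 FPKM in WT and 4.36, 5.06 and 5.33 in Jmjd6-/-, again unstimulated first and without overlap, its log2 ratio being 1.19 ± 0.18 (SE, adjusted p = 0.0457, limma).

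Of the skin members that did not pass the threshold, 3 came close. Serpinb7 (megsin) was at 2.03, 2.82 and 3.21 FPKM in WT and 7.51, 7.51 and 5.95 in Jmjd6-/-, and its log2 ratio was 1.13 ± 0.20 (SE, adjusted p = 0.0558, limma). Serpinb11 had a log2 ratio of 0.63 ± 0.12 (SE, adjusted p = 0.0652, limma). Serpinb3c, another gene of the squamous cell carcinoma antigen family, was at 0.127 FPKM in unstimulated WT, 0.907 and 1.72 in WT with RANKL, 3.39 in unstimulated Jmjd6-/- and 6.26 and 4.11 in Jmjd6-/- with RANKL, with a log2 ratio under RANKL of 1.93 ± 0.37 (SE, adjusted p = 0.0663, limma). All 3 genes had the 3 Jmjd6-/- libraries on top. The eighth skin member, Serpinb12, went the other way, with both Jmjd6-/- RANKL libraries below both WT ones and a log2 ratio of -0.83 ± 0.30 (SE, adjusted p = 0.224, limma) that missed the threshold.

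Serpina9, at 16.7 ± 0.543 FPKM in WT and 33.2 ± 4.68 in Jmjd6-/- under RANKL (mean ± SD, n = 2 each), had a log2 ratio of 0.98 ± 0.16 (SE, adjusted p = 0.0496, limma). It was the only member higher in Jmjd6-/- outside the chromosome 1 cluster, and it passed in 5 of 13 alternatives. Without the first Jmjd6-/- RANKL library its log2 ratio was 0.84 and without the second 1.13, neither past the threshold.

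**Figure D3:**
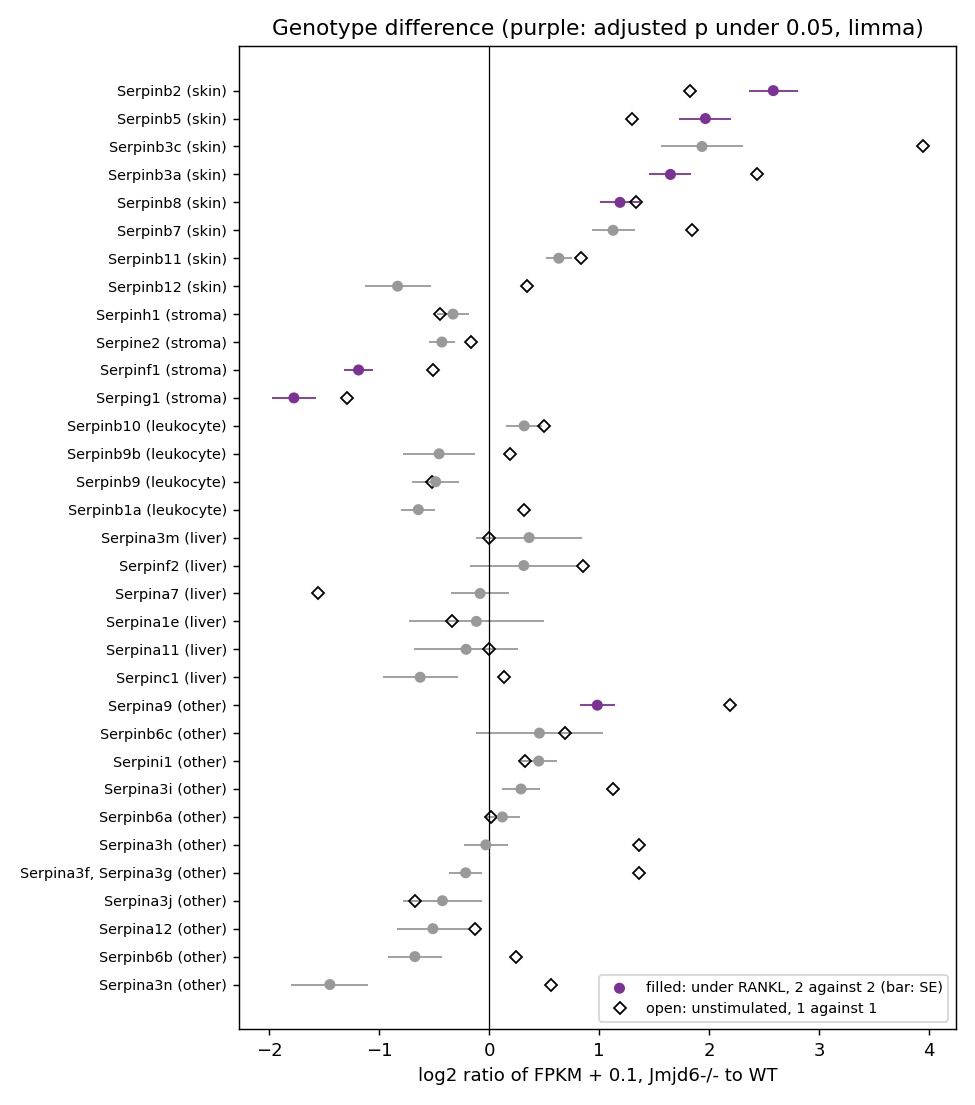
log2 ratio of FPKM + 0.1 in Jmjd6-/- to WT for 33 of the 34 tested Serpin genes, grouped by usual tissue. Filled points are the RANKL libraries (2 against 2, bars SE, purple past an adjusted p of 0.05) and open diamonds the unstimulated libraries (1 against 1, no error). The skin members other than Serpinb12 lie to the right of 0 and the 4 stroma members drawn to the left under RANKL.

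All 5 stroma members had both Jmjd6-/- RANKL libraries below both WT ones (26.2% of all genes), and 4 of them had all 3 Jmjd6-/- libraries below all 3 WT libraries (9.14% of all genes). Serping1 (C1 inhibitor, which blocks the complement proteases C1r and C1s) was at 9.33 FPKM in unstimulated WT, 14.5 and 10.6 in WT with RANKL, 3.74 in unstimulated Jmjd6-/- and 3.42 and 3.70 in Jmjd6-/- with RANKL. The lowest WT library was more than 2-fold above the highest Jmjd6-/- library. Under RANKL the log2 ratio was -1.78 ± 0.20 (SE, adjusted p = 0.0280, limma), and the mean was 3.53-fold higher in WT. Serpinf1, known for restraining blood vessel growth, was at 23.6, 48.4 and 44.1 FPKM in WT, unstimulated first, and 16.6, 18.7 and 21.9 in Jmjd6-/-, a log2 ratio under RANKL of -1.19 ± 0.13 (SE, adjusted p = 0.0280, limma). Its genotypes did not overlap, although unstimulated WT was close to the highest Jmjd6-/- value.

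Serpine2 and Serpinh1 were below WT in every Jmjd6-/- library by amounts that missed the threshold. For Serpine2 the log2 ratio was -0.43 ± 0.12 (SE, adjusted p = 0.138, limma), with 71.6, 87.1 and 79.3 FPKM in WT and 63.99, 58.1 and 65.4 in Jmjd6-/-. For Serpinh1 it was -0.33 ± 0.14 (SE, adjusted p = 0.306, limma).

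Sums of markers of other cell types were set beside these groups, although most of these markers singly missed the threshold. The summed level of 7 measured markers of cornifying keratinocytes was 71.4 to 157 FPKM in the 3 WT libraries and 341 to 419 in the 3 Jmjd6-/- libraries. Of the 7, 2 (Sprr1b and Ivl) were higher in Jmjd6-/- under RANKL, against 0.516% of all genes (limma, adjusted p under 0.05). Most of this sum was Krtdap in each library, whose log2 ratio of 1.68 ± 0.38 missed the threshold (SE, adjusted p = 0.0871, limma). The 11 skin serpins summed to 43.7 to 66.9 FPKM in WT and 114 to 118 in Jmjd6-/-. Of the 66.9 FPKM in the first WT RANKL library, 34.5 were Serpinb12, which was lower in Jmjd6-/- under RANKL without passing the threshold. For 7 mesenchyme markers the sum was 604 to 695 FPKM in WT and 289 to 414 in Jmjd6-/-. Of the 7, 2 (Col3a1 and Col6a1) were lower under RANKL, against 1.82% of all genes. Most of this sum was Col3a1 and Dcn, and the log2 ratio of Dcn, -0.32 ± 0.12, missed the threshold (SE, adjusted p = 0.253, limma). The 5 stroma serpins summed to 302 to 364 FPKM in WT and 226 to 254 in Jmjd6-/-. Most of that sum was Serpinh1 in each library, at 145 to 213 FPKM. Serpinh1 missed the threshold, as did Serpine2, the next highest. For 5 endothelial markers the sum was 12.3 to 22.4 FPKM in WT and 4.10 to 8.31 in Jmjd6-/-. None of the markers of these 3 lists was at 0 in all libraries. The part of the numbers of such cells in the serpin differences was not tested.

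**Figure D4:**
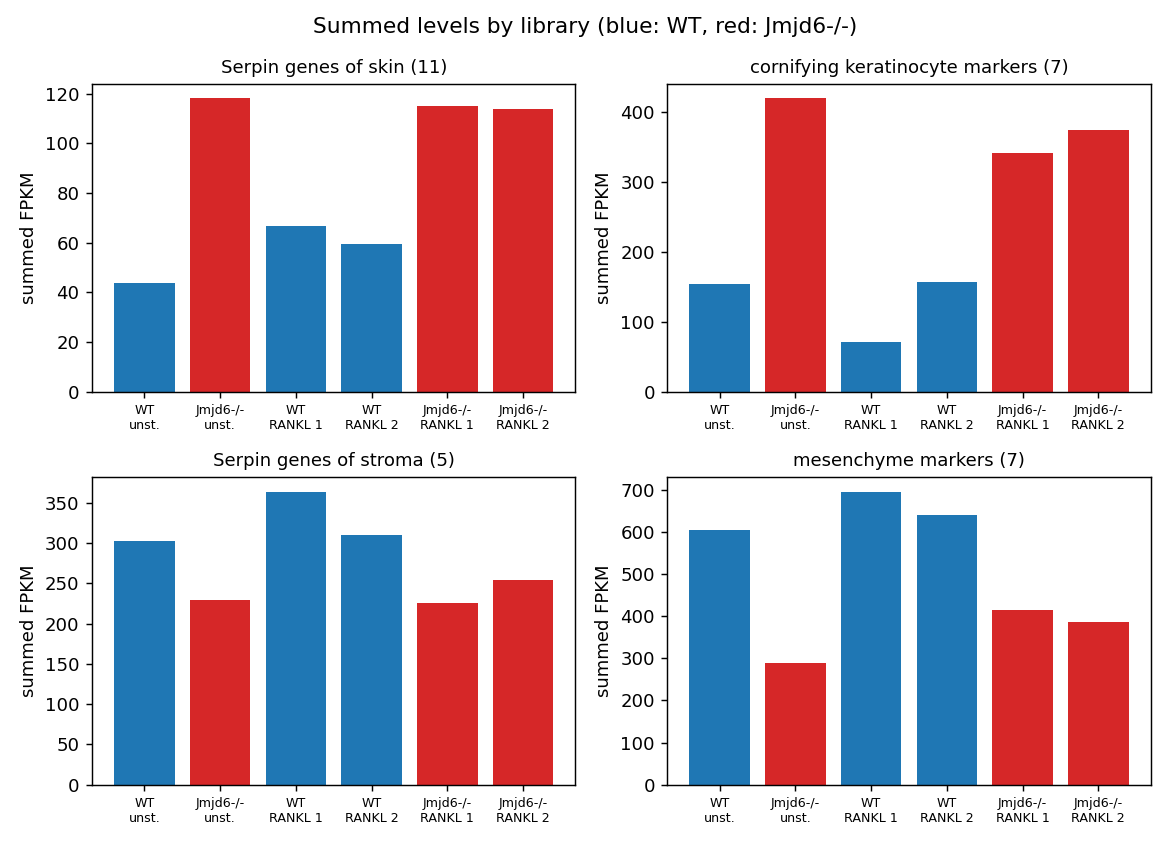
Summed FPKM per library of the 11 skin serpins, 7 cornifying keratinocyte markers, 5 stroma serpins and 7 mesenchyme markers (vertical axes start at 0, blue WT, red Jmjd6-/-). In the upper panels the 3 Jmjd6-/- libraries stand above the 3 WT libraries, and in the lower panels they are the shorter bars.

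Leaving out a library moved these counts, in fits where 1 genotype has a single RANKL library that is assumed to vary like the libraries of the other genotype. Without the first Jmjd6-/- RANKL library 2 members were higher and 1 lower, and without the second 1 was higher and 0 lower. Without the first WT RANKL library 7 were higher and 4 lower, and without the second 9 were higher and 5 lower. Serpinb2 passed in 12 of 13 alternatives, Serpinb5 and Serping1 in 11, Serpinb3a and Serpinf1 in 10 and Serpinb8 in 7.

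The leukocyte and liver members did not pass in this comparison. Under RANKL, Serpinb1a was at 14.8 ± 1.28 FPKM in WT and 9.39 ± 0.194 in Jmjd6-/- (mean ± SD, n = 2 each), a log2 ratio of -0.64 ± 0.15 (SE, adjusted p = 0.1001, limma). Serpinc1 had a log2 ratio of -0.63 ± 0.34 (SE, adjusted p = 0.408, limma), and Serpina7 one of -0.083 ± 0.26 (SE, adjusted p = 0.903, limma). The Serpina3 entries under RANKL gave log2 ratios from -1.45 for Serpina3n to 0.36 for Serpina3m, none past the threshold.

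The third comparison asked whether the response to RANKL differed between the genotypes. No member passed an adjusted p of 0.05 in limma, nor did any of the 15894 genes. At an unadjusted p under 0.05, 9 of the 34 members had a smaller log2 response in Jmjd6-/- and 1, Serpina7, a larger one, against 3.44% and 0.742% of all genes. The 9 included the shared entry of Serpina3f and Serpina3g, Serpina3h, Serpina3i, Serpina3n, Serpina9, Serpinb1a, Serpinb3c and Serpinf1. For the Serpina3f and Serpina3g entry the log2 response was 3.45 in WT and 1.87 in Jmjd6-/-, a difference of -1.58 ± 0.26 (SE, adjusted p = 0.712, limma). Its levels with RANKL overlapped between the genotypes, while the unstimulated Jmjd6-/- library was above the unstimulated WT library by 1.36 on the log2 scale. Serpina3h had the same arrangement, with an unstimulated difference of 1.36. For Serpina3i the unstimulated difference was 1.12, and both Jmjd6-/- RANKL libraries lay above both WT ones. For Serpina9 the log2 response was 4.85 in WT and 3.65 in Jmjd6-/-, with an unstimulated difference of 2.19. For Serpinb1a it was 3.29 in WT and 2.33 in Jmjd6-/-, with an unstimulated difference of 0.32. Each of these differences rests on 1 unstimulated library per genotype, which has no replicate, and both responses and the genotype differences use the same libraries.

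**Figure D5:**
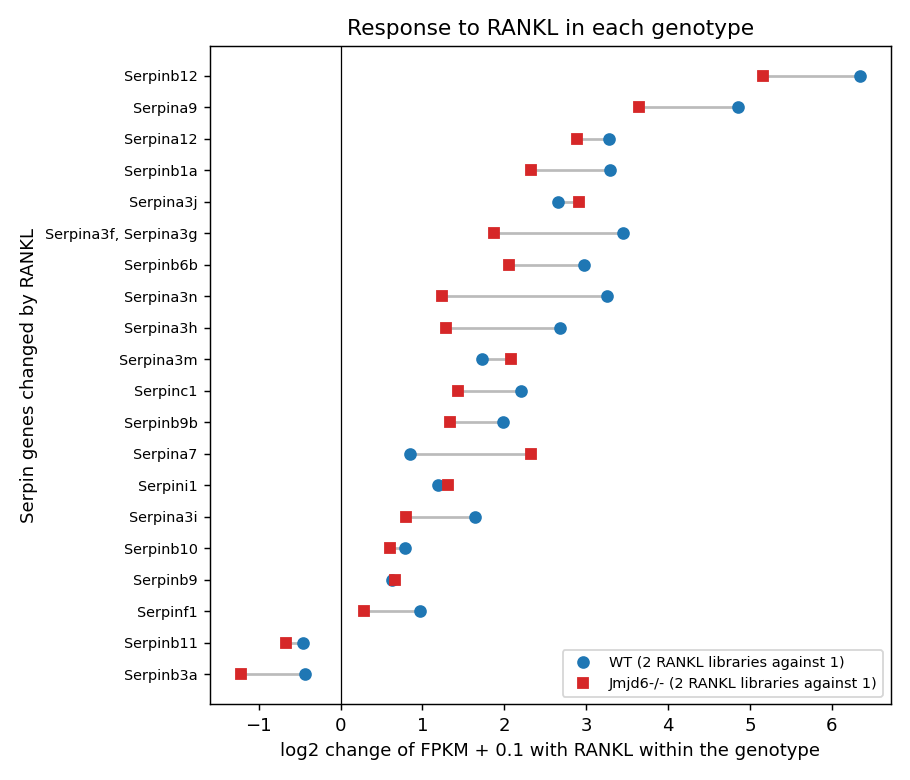
log2 change of FPKM + 0.1 with RANKL within WT (circles) and within Jmjd6-/- (squares), each 2 RANKL libraries against 1 unstimulated library, for the 20 Serpin genes that changed with RANKL. Serpina3n, Serpina3h and the Serpina3f and Serpina3g entry have WT responses of 3.25, 2.68 and 3.45 and Jmjd6-/- responses of 1.24, 1.29 and 1.87.

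For comparison, proteases, most of them of classes on which serpins act, were listed together with Plaur, the receptor of urokinase, which is not a protease. These were 58 genes with 57 entries, of which 40 were tested. With RANKL 11 rose and 1 fell, against 10.5% and 4.11% of all tested genes, and between genotypes under RANKL 0 were higher and 6 lower in Jmjd6-/-, against 0.516% and 1.82%. The one that fell was Pcsk6, a proprotein convertase, with a log2 change of -1.32 ± 0.14 (SE, adjusted p = 0.00154, limma). The targets of Serping1 were lower together with it. C1s was at 20.4, 25.5 and 21.02 FPKM in WT, unstimulated first, and 10.7, 7.69 and 6.06 in Jmjd6-/-, and C1ra at 6.09, 10.1 and 10.5 in WT and 2.36, 3.24 and 2.41 in Jmjd6-/-. Neither overlapped between the genotypes, and the log2 ratios under RANKL were -1.75 ± 0.18 for C1s and -1.85 ± 0.20 for C1ra (SE, adjusted p = 0.0279 and 0.0280, limma). The other 4 that were lower were the mast cell proteases Mcpt1, Mcpt2, Mcpt4 and Cma1. For the plasminogen system, on which Serpine2, Serpinb2 and Serpini1 act, Plau (urokinase) had a log2 ratio of 0.69 ± 0.14 and Plat (tissue plasminogen activator) one of 0.69 ± 0.12 (SE, adjusted p = 0.0776 and 0.0603, limma), with both Jmjd6-/- RANKL libraries above both WT ones in each gene. Their substrate, plasminogen (Plg), was listed at 0 in every library.

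Among the targets of the intracellular serpins, the neutrophil serine proteases Elane, Prtn3 and Ctsg did not pass the filter and summed to at most 0.361 FPKM in any library. Serpinb1a, an inhibitor of the neutrophil serine proteases, stood at 1.42 to 15.7 FPKM, and Serpinb6a, an inhibitor of cathepsin G (Ctsg), at 123 to 163. None of the 4 tested granzyme genes changed past the threshold in either comparison. Of the 7 cysteine cathepsins 4 rose with RANKL, Ctsz, Ctsk, Ctss and Ctsh (10.5% of all genes rose). The most abundant, Ctsl, at 3557 to 5619 FPKM, had a log2 change of -0.45 ± 0.14 (SE, adjusted p = 0.0847, limma). Ctsz had a log2 change of 1.11 ± 0.16 and Ctss, which cleaves the invariant chain in antigen-presenting cells, one of 0.64 ± 0.15 (SE, adjusted p = 0.00593 and 0.0369, limma). The epidermal proteases gave 4 of 11 that rose, namely Klk6, Klk7, Tmprss11d and St14. Tmprss11d was at 0 and 0.0857 FPKM without RANKL in WT and Jmjd6-/- and 3.32 to 6.17 with it, and St14 (matriptase) had a log2 change of 1.07 ± 0.12 (SE, adjusted p = 0.00237, limma). The other 3 listed genes that rose were the proteases F7 and F10 and the receptor Plaur. Furin, the target of Serpinb8, had a log2 ratio between genotypes of -0.21 ± 0.13 (SE, adjusted p = 0.474, limma).

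By a rule on range alone, the largest of the 6 values over the smallest with 0.1 FPKM added to both, 29 of the 62 members passed 3-fold, against 14.3% of all 22513 genes. By usual tissue these were 7 of 11 skin, 7 of 15 liver, 3 of 6 leukocyte, 2 of 5 stroma and 10 of 25 other members.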

How the data were processed

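Poly-A RNA was sequenced from the 6 libraries, and per the labels the authors mapped reads to mm10 with TopHat2 2.0.10 and made the deposited FPKM per gene with Cufflinks 2.1.1, correcting for multi-reads and assuming stranded libraries. Groups came from the sample titles and the stimulation field. The treatment field names RANKL for every sample. Values were used as deposited. With limma 3.58.1 in R 4.3.3, log2(FPKM + 0.1) of genes averaging 0.1 FPKM or more was fitted with a trend of variance on level, and p-values were adjusted by Benjamini-Hochberg (threshold 0.05), for RANKL with genotype as a term and for genotype in a model of the 4 condition means. The script was tested on simulated data. Depth was estimated from the steps between FPKM below 0.15 and transcript length less 150 bases, and is approximate. A value of 0 was taken to allow 3 fragments, which covers counting error only. The members, roles and gene lists were chosen with earlier results of these data known. Values are given for members with a mean of at least 1 FPKM or past the threshold, and for some of the proteases past it or with a mean of at least 10 FPKM. Plg, Elane, Prtn3, Ctsg and the markers named were chosen after their values were seen, as were which proteases to give. Alternatives were other added constants, filters, scalings, no trend, single libraries left out and a replicate block. The values of 1 tested member are not reported here.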

Additional observations from a re-analysis of the deposited data

Results flagged for a closer look

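For 3 members both RANKL libraries of one genotype moved one way from the unstimulated library and both of the other genotype moved the other way. Serpinb5 had a log2 response to RANKL of -0.58 in WT and 0.088 in Jmjd6-/-. Serpinb7 had one of 0.55 in WT and -0.17 in Jmjd6-/-. Serping1 had one of 0.41 in WT and -0.074 in Jmjd6-/-. The Jmjd6-/- libraries lay close together: Serpinb5 was at 10.6 FPKM unstimulated and 10.6 and 11.95 with RANKL. The test of the difference, the interaction term in limma, gave an adjusted p of 1 for each of the 3 genes, and each response rests on 1 unstimulated library.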

How the results depend on the processing

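The counts of members past the threshold moved with the processing, and the cause was not tested except where fewer or more genes entered the test. Rising members with RANKL numbered 18, 11 with a filter at a mean of 1 FPKM, which tested 23 members, 9 with no filter, and 10 to 18 with single libraries left out. Falling members numbered 2, 1 with 1 FPKM added, 1 with no trend, 1 with median-ratio scaling, 0 with no filter and 0 to 2 with single libraries left out. Members higher in Jmjd6-/- under RANKL numbered 5, 3 with 0.01 FPKM added, 3 with a filter at 1 FPKM, 3 with equal totals, 0 with no filter and 1 to 9 with single libraries left out. Lower members numbered 2, 0 with no filter and 0 to 5 with single libraries left out. No member passed for a different response in any alternative. Past the 3-fold range there were 29 members, 12 with 1 and 49 with 0.01 FPKM added, and 25 to 28 with single RANKL libraries left out. With the replicate number as a block, 8 members were higher and 6 lower. The numbers share no stated origin, and the deviations of same-numbered libraries had a correlation of -0.0402 over 15894 genes, so they were not taken to pair the libraries.

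Directions reversed only with a single library left out, and none of the reversed values passed. For RANKL these were, over the left-out libraries, Serpinb2 (-0.18 to 0.58), Serpinb5 (-0.58 to 0.088), Serpinb7 (-0.17 to 0.55), Serpine2 (-0.054 to 0.21), Serping1 (-0.074 to 0.41) and Serpinh1 (-0.036 to 0.094), and for genotype Serpina3h (-0.22 to 0.15), Serpina3m (-0.21 to 0.93), Serpina7 (-0.28 to 0.12) and Serpinb6a (-0.075 to 0.31). Of all single-gene values for RANKL, 300 kept direction and side of the threshold, 62 lost the call, 1 gained one and 8 reversed. For genotype, 325 kept both, 25 lost the call, 16 gained one and 5 reversed. Genes at a few fragments in the unstimulated libraries, such as Serpina12 and Serpina3m, have folds limited by depth.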
